A study of Mus musculus with 6 samples.

Results

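Most of the genes described here write, read or target the histone mark that keeps repeats silent in mouse embryonic stem (ES) cells. Atrx and Daxx act in deposition of the histone variant H3.3. There were 10 named genes, chosen by symbol for their roles in H3K9 methylation, HP1 binding, Trim28 repression and Atrx/Daxx silencing. Of these, 9 had a probe set on the array, 1 probe set each, out of 19938 genes tested. The remaining 1, the X-linked methyltransferase gene Suv39h1, was paired with no probe set and was not analysed here.

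Expression was compared between 3 samples of Scc1 lox/lox ERT2-Cre cells and 3 samples of Scc1 wt/wt ERT2-Cre cells. All were female ES cells of a mixed C57BL/129 background, derived and grown in 2i, a pair of kinase inhibitors, with LIF in N2B27 medium. Every sample had received 4-hydroxytamoxifen (4-OHT) for 24 h at 80 nM, which lets the ERT2-Cre recombinase enter the nucleus. Scc1 is the older name of Rad21, the cohesin subunit that closes the ring, and in lox/lox cells its alleles carry sites that Cre can excise. Both genotypes thus carried Cre and 4-OHT, samples without 4-OHT were not analysed here, and the labels do not say how many derivations or clones stood behind each genotype. The comparison asks what differed after 24 h of 4-OHT between cells whose Rad21 alleles Cre can and cannot excise. Cohesin protein was not measured here, so the extent and length of its loss are not shown. Any difference between the cell lines that preceded 4-OHT cannot be told apart from an effect of that loss.

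In this pathway a KRAB zinc finger protein such as Zfp57 binds a DNA sequence and brings in the corepressor Trim28. Trim28 recruits the methyltransferase Setdb1, which methylates lysine 9 of histone H3 (H3K9), and HP1 proteins bind that mark. Ehmt1 and Ehmt2, also called GLP and G9a, work as a heterodimer that places lower methylation states of H3K9. Atrx and Daxx form a chaperone that deposits the histone variant H3.3 at telomeres, pericentric repeats and retroelements. In ES cells these factors are known for holding down endogenous retroviruses and for keeping methylation at imprinted control regions.

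Values are log2 intensities after RMA, so a difference of 1 is a 2-fold change, and levels of different genes on this scale cannot be set against each other. Rad21 averaged 6.09 ± 0.04 in lox/lox cells, against 10.02 ± 0.03 in wt/wt cells (mean ± SD, n = 3 each), a 15.2-fold lower level in lox/lox cells (adjusted p = 1.57e-09 in limma). The correlation of 2 arrays lay between 0.9892 and 0.9947. On the first component within the genotypes, lox/lox replicate 3 (-0.482) and wt/wt replicate 2 (-0.621) had negative loadings, against 0.121 to 0.5 for the other arrays. Below, these 2 are called the arrays that stood apart. At the other end, wt/wt replicate 1 (0.5) lay farther from 0 than lox/lox replicate 3. The small number of arrays limits the precision, and in bulk RNA fewer cells of a type and less RNA per cell cannot be told apart.

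The silencing genes differed by small folds between the genotypes, and the number called depended on the fit. Of 9 measured, 1 fell, none rose and 8 did not pass at an adjusted p under 0.05 over all genes in limma. Over all genes 6.16% passed, 2.55% higher and 3.61% lower, so in this fit 1 of 9 (11.1%) is near the background. With array weights, or with eBayes trend and robust, alternatives given below, 5 of the 9 passed. Over all genes those fits called 1717 and 1523, against 1228 in the main fit. No member passed without both arrays that stood apart. At an unadjusted p under 0.05 there were 6 of 9, 4 lower and 2 higher, where all genes gave 18.0%, 10.1% lower and 7.82% higher. Among the 3846 genes at least as bright as the dimmest of the 9, 10.0% passed the adjusted threshold and 26.5% the unadjusted one. The largest difference of the 9 was 1.25-fold on all 6 arrays. Their median log2 change was -0.11, against -0.01 for all genes, and the median of its absolute size was 0.28, against 0.09. Neither median was taken over the genes as bright as the 9.

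**Figure D1:**
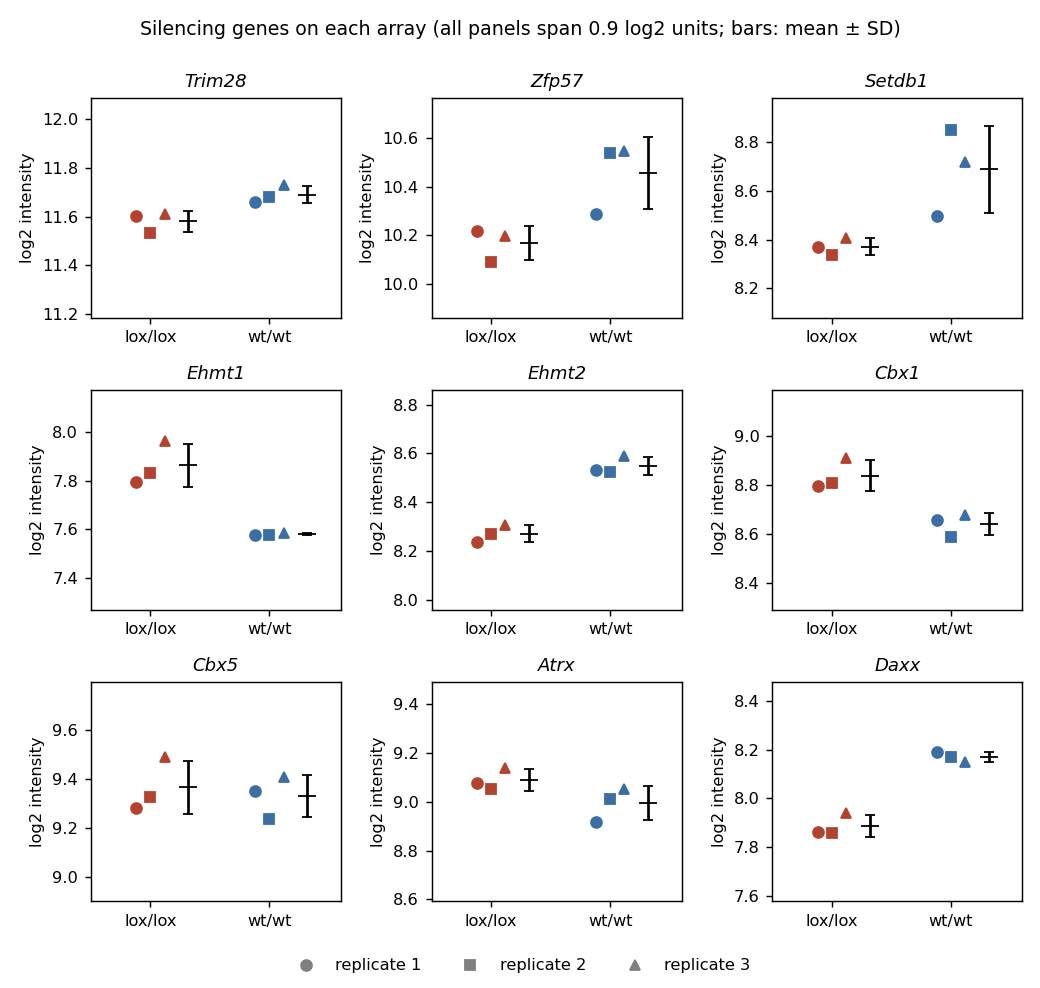
Log2 intensity of the 9 measured silencing genes on each array, lox/lox at the left and wt/wt at the right of each panel. Symbols give the replicate number, bars the mean ± SD (n = 3), and every panel spans the same log2 range. Ehmt2 and Daxx lie lower and Ehmt1 higher in lox/lox cells, while the Cbx5 arrays of both genotypes mix.

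The promoters of Ehmt1, Ehmt2 and Daxx, picked with the results known, are shown here. Products of Ehmt1 and Ehmt2 work together, and their levels differed in opposite directions, although neither gene passed the test. Daxx is the member that passed. Each promoter is 1 RefSeq window of GRCm38.p6, 300 bases long, running from 250 bases before to 50 after an annotated start, on the strand of the gene. Capitals mark 2 motifs searched on both strands, the E-box CACGTG, which Myc and other factors bind, and the GC box GGGCGG, a site of Sp1-type factors.
Ehmt1, chr2:24919560-24919859, minus strand: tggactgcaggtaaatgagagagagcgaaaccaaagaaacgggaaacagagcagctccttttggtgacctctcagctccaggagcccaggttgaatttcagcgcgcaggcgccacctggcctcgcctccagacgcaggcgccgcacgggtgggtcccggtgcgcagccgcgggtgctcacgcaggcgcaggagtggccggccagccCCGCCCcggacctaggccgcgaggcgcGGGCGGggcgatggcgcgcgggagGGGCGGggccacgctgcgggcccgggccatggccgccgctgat
Ehmt2, chr17:34898224-34898523, plus strand: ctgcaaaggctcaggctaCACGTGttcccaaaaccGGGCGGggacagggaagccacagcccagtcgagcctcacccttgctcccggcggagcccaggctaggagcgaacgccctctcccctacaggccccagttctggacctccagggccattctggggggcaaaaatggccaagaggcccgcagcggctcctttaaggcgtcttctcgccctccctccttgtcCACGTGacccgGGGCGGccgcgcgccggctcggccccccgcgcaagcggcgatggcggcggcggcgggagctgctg
Daxx, chr17:33909195-33909494, plus strand: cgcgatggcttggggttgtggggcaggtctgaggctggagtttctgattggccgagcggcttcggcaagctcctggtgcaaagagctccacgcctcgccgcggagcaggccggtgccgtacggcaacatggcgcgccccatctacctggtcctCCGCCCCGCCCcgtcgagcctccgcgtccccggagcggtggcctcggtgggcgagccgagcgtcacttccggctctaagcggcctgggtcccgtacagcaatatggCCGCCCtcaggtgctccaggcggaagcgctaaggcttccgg

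The E-box occurred 2 times in the Ehmt2 window and 0 times in those of Ehmt1 and Daxx. Over the 10 named genes, with 17 windows in all, it was found in windows of 2 genes, Ehmt2 and Cbx5, and it is present in 7.15% of all 32851 windows. The GC box was found in windows of 8 of the 10 genes and in 35.7% of all windows. A gene counted when any of its windows held the motif, so counts of genes and shares of windows are unlike measures. These matches describe letters and were not tested as sites.

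The targeting arm of the pathway comes first. Trim28, the scaffold that joins zinc finger proteins to the methyltransferase, had log2 levels of 11.60, 11.53 and 11.61 in lox/lox cells, against 11.66, 11.68 and 11.73 in wt/wt cells. Every lox/lox array lay below every wt/wt array, by a gap of only 0.05, and after median centring of the arrays they overlapped. The log2 change was -0.11 (SE 0.07, adjusted p = 0.516 in limma), with a 95% interval of -0.27 to 0.05. That interval reaches a decrease of 1.21-fold and an increase of 1.04-fold.

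Zfp57, the zinc finger protein that recognises a methylated motif at imprinted control regions, stood at 10.22, 10.09 and 10.20 in lox/lox cells, against 10.29, 10.54 and 10.54 in wt/wt cells. The lox/lox arrays lay lower, with wt/wt replicate 1 close to them and the other wt/wt arrays well above. The change was -0.29 on the log2 scale (SE 0.09, 95% interval -0.49 to -0.08), 1.22-fold lower, and did not pass (adjusted p = 0.11 in limma). It passed without wt/wt replicate 1 (adjusted p = 0.0379) and in none of the other 5 fits that left out 1 array, where the adjusted p reached 0.335.

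Among the methyltransferase genes, Setdb1, which Trim28 recruits, had levels of 8.37, 8.34 and 8.41 in lox/lox cells, against 8.50, 8.85 and 8.72 in wt/wt cells. The lox/lox arrays were tight (SD 0.03) and the wt/wt arrays spread widely (SD 0.18), again with wt/wt replicate 1 nearest to lox/lox. The log2 change of -0.32 (SE 0.10, 95% interval -0.53 to -0.10) was the largest in size of the 9 on all 6 arrays. It was -0.24 without wt/wt replicate 2, where those of Ehmt2 (-0.29), Ehmt1 (0.28), Daxx (-0.28) and Zfp57 (-0.25) were larger, and without lox/lox replicate 1 or 2 it did not exceed that of Ehmt1 at 2 decimals. It did not pass with all arrays (adjusted p = 0.0943 in limma). It passed without wt/wt replicate 1 (adjusted p = 0.0241), and its adjusted p reached 0.272 without lox/lox replicate 2.

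Ehmt1 had levels of 7.80, 7.83 and 7.96 in lox/lox cells, against 7.58, 7.58 and 7.58 in wt/wt cells. All lox/lox arrays lay above all wt/wt arrays, by at least 0.21, and the wt/wt arrays were nearly identical. The log2 change was 0.28 (SE 0.08, 95% interval 0.11 to 0.45), 1.22-fold higher in lox/lox cells, and missed the threshold (adjusted p = 0.0617 in limma).

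Its partner Ehmt2 had levels of 8.24, 8.27 and 8.31 in lox/lox cells, against 8.53, 8.53 and 8.59 in wt/wt cells. Here all lox/lox arrays lay below all wt/wt arrays, by at least 0.22. The log2 change was -0.28 (SE 0.07, 95% interval -0.44 to -0.12), 1.21-fold lower, and also missed the threshold (adjusted p = 0.0521 in limma). The adjusted p of Ehmt2 was 0.0725 without lox/lox replicate 3, and that of Ehmt1 was 0.0957 without lox/lox replicate 1. Those were the lowest values among the fits that left out 1 array. Both genes passed with dim genes removed, with eBayes trend and robust and with array weights. Neither passed after median centring or with the replicate block.

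The reader proteins of the mark are the HP1 family, of which Cbx1 encodes HP1 beta and Cbx5 HP1 alpha. Cbx1 stood at 8.80, 8.81 and 8.91 in lox/lox cells, against 8.66, 8.59 and 8.68 in wt/wt cells. The lox/lox arrays were higher by at least 0.12, and the log2 change of 0.20 (SE 0.08, 95% interval 0.03 to 0.37) did not pass (adjusted p = 0.191 in limma). Cbx5 stood at 9.28, 9.33 and 9.49 in lox/lox cells, against 9.35, 9.24 and 9.41 in wt/wt cells. Its genotypes overlapped, the only case among the 9. The log2 change of Cbx5 was 0.03 (95% interval -0.16 to 0.23, adjusted p = 0.903 in limma), and its sign turned without lox/lox replicate 3 or wt/wt replicate 2.

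The H3.3 chaperone pair gave the 1 call. Daxx, which binds H3.3, had levels of 7.86, 7.86 and 7.94 in lox/lox cells, against 8.19, 8.17 and 8.15 in wt/wt cells. All lox/lox arrays lay below all wt/wt arrays, by at least 0.21, and neither genotype had a stray array. Daxx fell by 0.28 on the log2 scale (SE 0.07, 95% interval -0.44 to -0.12), 1.22-fold, with an adjusted p of 0.0481 in limma. The call was lost in all 6 fits that left out 1 array, with the adjusted p between 0.0587 (lox/lox replicate 3 left out) and 0.17 (lox/lox replicate 2 left out). In those fits the log2 change itself stayed between -0.31 and -0.27.

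Atrx, the X-linked remodeller that works with Daxx, had levels of 9.08, 9.05 and 9.14 in lox/lox cells, against 8.92, 9.01 and 9.05 in wt/wt cells. The highest wt/wt array lay 0.00033 below the lowest lox/lox array, so that the genotypes met without overlapping, and they overlapped after median centring. The log2 change was 0.10 (SE 0.08, 95% interval -0.07 to 0.26) and did not pass (adjusted p = 0.602 in limma). X-linked genes as a whole had a median of -0.01, with 26 higher and 33 lower of 739 (7.98%). The number higher was 17 without lox/lox replicate 2, and the number lower was 21 without lox/lox replicate 1 or 2 or wt/wt replicate 3. Xist, the RNA that silences an X chromosome, was dim in both genotypes, at 3.29 to 3.45 in lox/lox cells, against 3.40 to 3.60 in wt/wt cells.

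**Figure D2:**
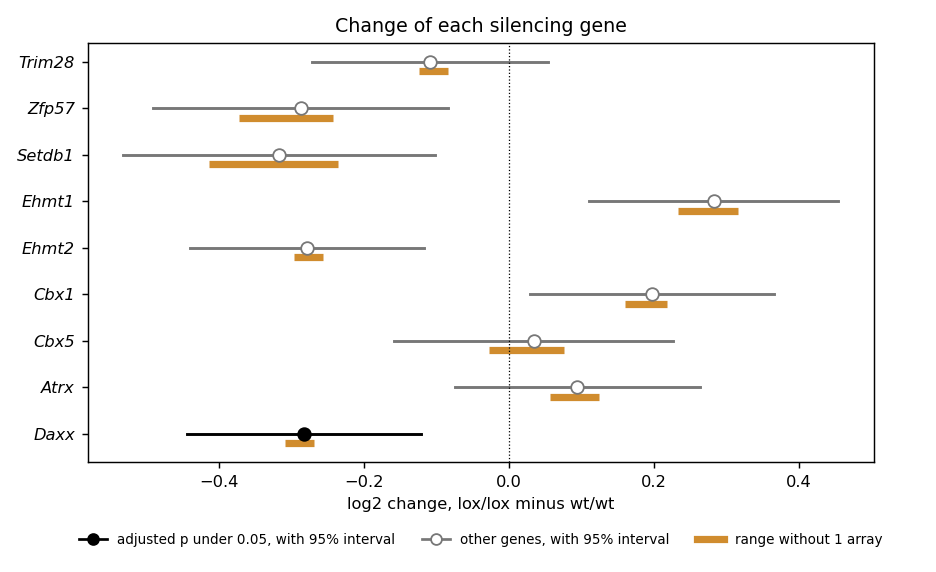
Log2 change of each silencing gene, lox/lox minus wt/wt, with the 95% interval of limma (thin line) and the range over the 6 fits that left out 1 array (thick line). Daxx alone is filled, at an adjusted p under 0.05, and the range of Cbx5 alone crosses 0.

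Counting arrays in place of tests, the genotypes did not overlap in 8 of the 9 genes (88.9%), 5 lower and 3 higher in lox/lox cells. Over all genes this held for 22.8%, 12.7% lower and 10.1% higher, and for 38.0% of genes as bright as the dimmest of the 9. After median centring the count was 6, and the share over all genes was not taken after it. The median SD within a genotype was 0.06 for the 9 genes, against 0.11 for all genes. All genes include 8519 no brighter than the median probe set, and the SD of genes as bright as the 9 was not taken.

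Partners in 1 complex or arm were set against each other within each array, in 4 pairs. The fifth, Suv39h1 with Setdb1, was not analysed here. The log2 difference of Ehmt1 minus Ehmt2 was -0.44, -0.44 and -0.35 in lox/lox cells, against -0.95, -0.95 and -1.01 in wt/wt cells. This difference was 0.56 higher in lox/lox cells, with no overlap, and 0.53 to 0.58 higher when any 1 array was left out. It is the change of Ehmt1 less that of Ehmt2. Each gene alone separated the genotypes, in opposite directions, so the lack of overlap adds no support. The same holds for Atrx minus Daxx below.

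The difference of Atrx minus Daxx was 1.21, 1.20 and 1.20 in lox/lox cells, against 0.73, 0.84 and 0.91 in wt/wt cells, 0.38 higher in lox/lox cells. That of Cbx5 minus Cbx1 was 0.16 lower in lox/lox cells and that of Zfp57 minus Trim28 0.18 lower. For Zfp57 minus Trim28, lox/lox replicate 1 (-1.3837) lay barely below wt/wt replicate 1 (-1.3735). In all 4 pairs the exact two-sided permutation test gave p = 0.1, also after adjustment over the 4 pairs. That is the smallest p that 3 against 3 arrays allow, so no pair could pass. After quantile normalization the pair Zfp57 minus Trim28 had an exact p of 0.2.

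**Figure D3:**
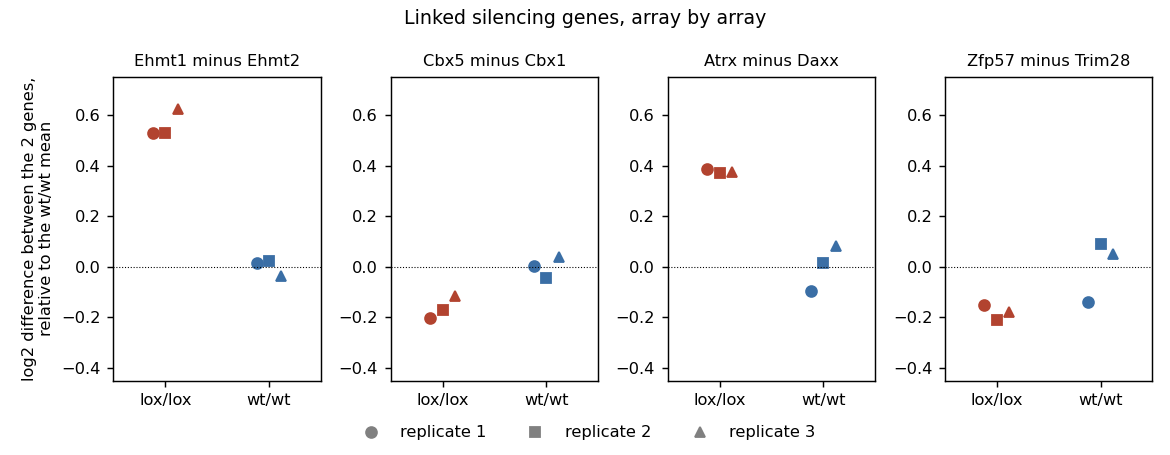
Within-array log2 difference between linked silencing genes, set to 0 at the wt/wt mean, with lox/lox at the left and wt/wt at the right of each panel and symbols for the replicate number. The lox/lox and wt/wt arrays do not overlap in any of the 4 pairs. They lie farthest apart for Ehmt1 minus Ehmt2 and nearly meet for Zfp57 minus Trim28.

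Around these genes stand further parts of the machinery. Counts of called genes in these lists were not tested against the share over all genes, 6.16%. Of 11 relatives and cofactors of the H3K9 methyltransferases, 3 rose (27.3%), none fell and 8 did not pass. Their median log2 change was 0.10. Wiz, a zinc finger protein that binds the Ehmt1-Ehmt2 complex, had levels of 6.94, 7.08 and 6.84 in lox/lox cells, against 6.61, 6.45 and 6.45 in wt/wt cells. It rose by 0.45 (SE 0.09, adjusted p = 0.0157 in limma) with no overlap. The chromodomain protein genes Cdyl2 and Cdyl rose by 0.49 and 0.28 on the log2 scale (adjusted p = 0.0223 and 0.0456). Cdyl is known to bridge Ehmt2 to repressor complexes. When 1 array was left out, the call of Wiz was lost without lox/lox replicate 2 or wt/wt replicate 2 or 3 (highest adjusted p 0.0795). That of Cdyl2 was lost without the same 3 arrays or lox/lox replicate 3 (highest 0.0872), and that of Cdyl in all 6 fits (highest 0.147). Without both arrays that stood apart, Wiz alone of the 11 was called. With lox/lox replicate 3 left out, Setdb2, named after its values were seen, passed as lower (adjusted p 0.0468). Suv39h2, the sister gene of the unmeasured Suv39h1, differed by -0.06 on the log2 scale (adjusted p = 0.82) and was named after its values were seen.

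Of 11 H3K9 demethylase genes 1 fell (9.09%, against 6.16% over all genes), none rose and 10 did not pass. Kdm3b stood at 9.35, 9.25 and 9.43 in lox/lox cells, against 9.66, 9.80 and 9.83 in wt/wt cells, and fell by 0.42 (SE 0.08, adjusted p = 0.0152 in limma). With wt/wt replicate 1 left out, Kdm3a passed as lower too (adjusted p 0.0433) and made 2 of the 11. It was named after its values were seen. The call of Kdm3b was lost without lox/lox replicate 2 or wt/wt replicate 2 or 3 (highest adjusted p 0.0808), and without both arrays that stood apart (0.0581).

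The HUSH complex silences young retroelements together with MORC proteins and Setdb1. Of 9 measured genes of this group, 2 rose (22.2%, against 6.16% over all genes) and 7 did not pass. Tasor2, a relative of the HUSH scaffold Tasor, had levels of 7.13, 7.04 and 7.35 in lox/lox cells, against 6.30, 6.72 and 6.36 in wt/wt cells. It rose by 0.71 (SE 0.12, adjusted p = 0.00742 in limma) and passed in all 6 fits that left out 1 array. Morc1, a germline ATPase needed for transposon silencing in the male germ line, had levels of 8.61, 8.63 and 8.80 in lox/lox cells, against 8.27, 8.16 and 8.10 in wt/wt cells. It rose by 0.50 (SE 0.09, adjusted p = 0.00633) and also passed in all 6. Without both arrays that stood apart, Tasor2 had an adjusted p of 0.00766 and Morc1 one of 0.0537. Tasor itself, named after its values were seen, differed by 0.05 on the log2 scale (adjusted p = 0.821).

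Of 11 relatives and partners of HP1, 1 fell (9.09%, against 6.16% over all genes) and 10 did not pass. This was Trim24, a sister of Trim28, at 8.52, 8.47 and 8.54 in lox/lox cells, against 8.81, 9.10 and 9.08 in wt/wt cells, with a log2 change of -0.49 (SE 0.09, adjusted p = 0.0116 in limma). The call was lost without lox/lox replicate 2 or wt/wt replicate 3 (highest adjusted p 0.0631), and without both arrays that stood apart (0.0805). With wt/wt replicate 1 left out, Trim33 also passed as lower (adjusted p 0.045). It and Cbx3, the third HP1 gene, were named after their values were seen, and Cbx3 had a change of -0.06 (adjusted p = 0.787). Of 10 genes of H3.3 and histone chaperones, 1 fell (10.0%), the replication-coupled assembly factor Chaf1b, by 0.37 (SE 0.08, adjusted p = 0.0244 in limma). That call was lost without lox/lox replicate 1 or 2 or wt/wt replicate 1 or 2 (highest adjusted p 0.117), and without both arrays that stood apart (0.0731). The probe set of H3f3a, which encodes H3.3, was listed at 3.55 on average in lox/lox cells, against 3.47 in wt/wt cells, among dim probe sets, and is not interpreted here. Of 8 DNA-binding repressors of retroelements and imprints, 1 rose (12.5%), Zfp600, by 0.50 (SE 0.11, adjusted p = 0.023 in limma). Its call was lost in each fit that left out 1 array other than wt/wt replicate 2 (highest adjusted p 0.104).

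**Figure D4:**
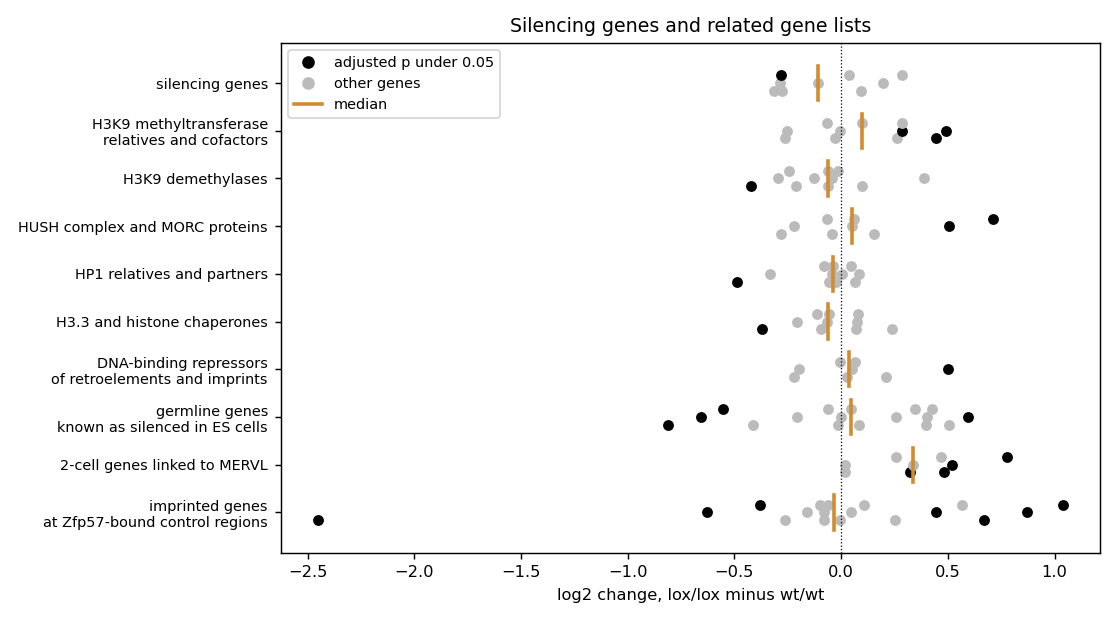
Log2 change, lox/lox minus wt/wt, of every measured gene of the silencing set and of 9 related lists. Black points have an adjusted p under 0.05, grey points do not, and the upright line is the median of a list. The silencing genes lie between -0.32 and 0.28, and the farthest point is Plagl1 among the imprinted genes at -2.45.

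Genes linked to this machinery were described from 3 lists. For imprinted genes the link is methylation at a control region, so a rise or fall was not read as less or more silencing. Of 18 measured imprinted genes at control regions that Zfp57 binds, 4 rose and 3 fell, with a median of -0.03. Together 38.9% were called, against 6.16% over all genes, and this was not tested. Plagl1, an imprinted zinc finger gene, had levels of 6.35, 5.71 and 5.87 in lox/lox cells, against 8.21, 8.61 and 8.47 in wt/wt cells. It fell by 2.45 (SE 0.16, adjusted p = 3.10e-05 in limma). The growth inhibitor gene Cdkn1c and the gene Mest rose by 1.04 and 0.87, and the translation factor gene Mcts2 fell by 0.63 (adjusted p up to 0.00156). These 4 passed in all 6 fits that left out 1 array, 2 of them higher and 2 lower in lox/lox cells. With wt/wt replicate 2 and lox/lox replicate 3 left out together, 3 genes of the list passed as higher, and 2 as lower.

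Among 9 measured genes of the 2-cell embryo, linked to the retrovirus MERVL, 4 rose and none fell, with a median of 0.34. The called share was 44.4%, against 6.16% over all genes, 2.55% higher, and was not tested. Tdpoz3, a gene of a multicopy family, had levels of 5.03, 4.77 and 5.14 in lox/lox cells, against 4.30, 4.22 and 4.09 in wt/wt cells. It rose by 0.78 (SE 0.11, adjusted p = 0.00183 in limma), and was the 1 gene of the list called in all 6 fits that left out 1 array. Usp17ld and Usp17lc, deubiquitinase genes of another multicopy family, rose by 0.52 and 0.48, and the zinc finger gene Zfp352 by 0.32 (adjusted p up to 0.0419). The call of Usp17ld was lost without lox/lox replicate 2 or wt/wt replicate 2 or 3 (highest adjusted p 0.0536), that of Usp17lc without lox/lox replicate 2 or 3 or wt/wt replicate 2 (highest 0.0593), and that of Zfp352 in all 6 fits (highest 0.15). The number of higher genes was 1 to 3 with 1 array left out and 1 without both arrays that stood apart. Only 2 of the 9 lay above the median probe set, and probes of such families can read several copies.

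Of 17 germline genes that H3K9 and DNA methylation are known to silence, 1 rose, 3 fell and 13 did not pass, with a median of 0.05. The called share was 23.5%, against 6.16% over all genes, and was not tested. Hormad1, of the meiotic chromosome axis, rose by 0.60 (SE 0.11, adjusted p = 0.0101 in limma). Wfdc15a fell by 0.81, the germ cell RNA-binding gene Dazl by 0.66 and the tubulin gene Tuba3a by 0.55 (adjusted p up to 0.0248). Dazl lost its call without lox/lox replicate 2 or 3 or wt/wt replicate 2 or 3 (highest adjusted p 0.115), and the other 3 kept theirs in all 6 fits. Without lox/lox replicate 1 the counts were 3 higher and 4 lower, as Mael and Sycp3 passed as higher and Tuba3b as lower (adjusted p 0.0462 to 0.0499). These 3 genes were named after their values were seen. Without both arrays that stood apart, 1 gene was lower, Tuba3a, and none was higher. Of the 17, 10 lay above the median probe set, although the list is named for silencing.

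Defining markers of ES cells were high in both genotypes, with a mean of 10.59 to 10.78 over 8 markers in lox/lox cells, against 11.04 to 11.12 in wt/wt cells, and 4 of the 8 fell. Of 8 fibroblast markers, 0 passed in limma and 2 had an unadjusted p under 0.05, with means of 5.62 to 5.70 in lox/lox cells, against 5.46 to 5.67 in wt/wt cells. Of 6 primitive endoderm and 5 neural markers, 0 passed in limma, with 0 and 2 at an unadjusted p under 0.05. Means of the primitive endoderm markers were 4.62 to 4.73 in lox/lox cells, against 4.45 to 4.83 in wt/wt cells. Those of the neural markers were 5.82 to 5.87 in lox/lox cells, against 5.53 to 5.74 in wt/wt cells. Of 6 trophectoderm markers 1 fell, Tfap2c, which is also used by ES and germ cells. Means of the 6 were 5.63 to 5.65 in lox/lox cells, against 5.73 to 5.85 in wt/wt cells. The part of these markers in the differences above was not tested.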

How the data were processed

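Total RNA of 6 cultures was hybridised to Affymetrix Mouse Gene 1.0 ST arrays. The authors deposited log2 values of 35556 probe sets. The submitters' processing notes name RMA and affy; no version or genome build is given in the sources used here. RMA assumes like distributions on all arrays, so a change of total RNA per cell cannot be seen, and background compresses changes of dim genes. Per the labels, dose is in nM; the design text has mM.

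Probe sets with exactly 1 symbol in the platform annotation (21789) were used, and the brightest represented each gene. The mouse gene table of GRCm38.p6 gave chromosomes and gene order. The comparison, lox/lox minus wt/wt, used lmFit and eBayes of limma 3.58.1 (R 4.3.3), with Benjamini-Hochberg adjustment over 19938 genes. The design text calls the samples biological replicates, and p-values measure the spread between 3 per genotype. The code was tested on simulated data with planted changes larger than that of any silencing gene, so recovery of changes as small as theirs was not tested.

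The members and lists were chosen with earlier results of these data known. The rule named all members, Rad21, Xist and, of each related list, up to 4 called genes. For the 3 members with the smallest p it added the 3 genes most alike over the arrays. Genes outside it are said to be named after their values were seen. Alternatives were other normalizations, filters, probe set rules, variance settings, array weights, a block for the replicate number, and leaving out arrays. Leaving out both arrays that stood apart was added after seeing the data.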

Additional observations from a re-analysis of the deposited data

How the results depend on the processing

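The number of silencing genes called lower was 1. It was 0 after quantile normalization, after median centring, with the replicate block, at an adjusted p under 0.01 and without both arrays that stood apart. It was 2 with dim genes removed (Ehmt2 and Daxx), and 0 to 2 when 1 array was left out. With eBayes trend and robust it was 4, and with array weights also 4 (Zfp57, Setdb1, Ehmt2 and Daxx in each). The number called higher was 0, and 1 (Ehmt1) after quantile normalization, cyclic loess, removal of dim genes, eBayes trend and robust, or array weights. All genes called numbered 1228, 626 to 1132 when 1 array was left out, 697 without both arrays that stood apart and 553 at an adjusted p under 0.01. Why these counts moved was not tested. Cbx5 reversed to -0.0193 with array weights and -0.0745 without both arrays that stood apart, and ran from -0.0270 to 0.0762 when 1 array was left out, with the sign turned without lox/lox replicate 3 or wt/wt replicate 2. The other 8 silencing genes kept their sign under every alternative run, and Rad21 kept its sign and call. The median change of the silencing genes moved by less than its spread between arrays. Same-numbered samples did not deviate together (correlations of 0.0581, -0.122 and -0.0508, with 1 of 6 arrays closest to its own number), and the replicate block gave 1086 calls over all genes and an adjusted p of 0.114 for Daxx. The precision is limited by 3 arrays per genotype, and dim probe sets by background.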

Other observations

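Of the 9 silencing genes measured, 3 lie on chromosome 17, and all 3, Daxx, Ehmt2 and Zfp57, had a negative log2 change. The reference gene table places 55 tested genes between Daxx and Ehmt2 and 88 between Ehmt2 and Zfp57. This stretch was looked at after the values were seen. Of its 143 other genes, 5 rose and 5 fell (6.99%), with a median log2 change of 0.02, and of all 936 genes tested on the chromosome 22 rose and 35 fell (6.09%). In the stretch the counts were 2 or 3 in each direction without any 1 array other than wt/wt replicate 1, without which they were 7 higher and 5 lower. On the chromosome 12 were higher without wt/wt replicate 3, and 16 to 23 were lower without lox/lox replicate 1 or 2 or wt/wt replicate 2 or 3. Without both arrays that stood apart, the stretch had 2 higher and 2 lower and the chromosome 11 higher and 23 lower. Ddr1, a collagen receptor kinase, and H2-Q4, a class I histocompatibility gene, rose by 0.65 and 0.70 on the log2 scale, and Apom, an apolipoprotein gene, fell by 0.69. They lie between Daxx and Zfp57 and passed in all 6 fits that left out 1 array, with an adjusted p of at most 0.00186 on all arrays in limma.

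Over the 6 arrays, the genes most like Daxx were Rcbtb2, Tsc22d1 and Atp1b1, with Pearson's r of 0.9989, 0.9964 and 0.9961 among 11419 genes above the median probe set. Those most like Ehmt2 were Acly, Arpc4 and Zfp568 (r of 0.9978, 0.9972 and 0.9966), and those most like Ehmt1 were Pdpn, Ptprs and Srl (r of 0.9985, 0.9973 and 0.9962). The 6 points share the genotype difference, so any gene that separates the genotypes with little scatter scores high, and these values are a description only.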
